A study of Mus musculus with 8 samples.

Results

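The response to desiccating stress that was common to 4 myeloid populations of the mouse conjunctiva was examined in all 8 samples of the series. Each sample from stressed mice (DS) was set against the sample of the same sorted population from non-stressed mice (NS), which gave 4 pairs: MHCII+, Ly6C-high, Ly6C-inter and Ly6C-low. All mice were female and 10 weeks of age, of the C57BL/6 strain and with no genetic change. NS mice stayed in a normal environment. DS mice spent 5 days in a drafty dry environment while their tear secretion was blocked with a drug. CD11b+ cells were sorted by surface MHCII, and the MHCII- cells that carried CD64 were divided by their level of Ly6C. Each sample held cells pooled from both conjunctivae of 20 mice, and each population had 1 sample per condition. The populations therefore served as the 4 pairs of the stress contrast, in place of replicates. The study describes pools from 20 mice per group, and lists fewer C57BL/6 mice than the 160 that 8 separate pools would need. The populations of a condition thus cannot all have come from separate mice, and they are not independent replicates of the stress.

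The conjunctiva lines the eyelids and the white of the eye, and its macrophages and monocytes clear debris, present antigen and call in other leukocytes when the tear film fails. Monocytes enter tissue with high surface Ly6C and lose it as they turn into macrophages, while MHCII marks cells that can present peptides to CD4 T cells. Macrophages exposed to interleukin-4 or interleukin-13 express a set of genes that includes Arg1, Retnla and Ccl24, whereas interferons switch on antiviral genes such as Isg15.

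The nCounter assay counts fluorescent barcodes bound to each transcript, without amplification. The table held 754 genes, and their summed counts per sample ranged from 2728 (NS Ly6C-high) to 39677 (NS MHCII+). A count was called measurable when it lay more than 2 SD above the average of that sample's 8 negative probes, a limit of 11.2 to 22.99 counts. The limit was passed in at least 2 samples by 228 genes, 30.2% of the panel, and every result below is for these genes. In the MHCII+ pair 222 of them had a measurable count in NS or DS, against 52 in Ly6C-high, 127 in Ly6C-inter and 99 in Ly6C-low. The DS Ly6C-inter sample stood apart: its 5 most abundant genes took 28.3% of all counts against 12.1% in NS Ly6C-inter, and Emp1 alone took 10.1% of the DS counts. With equal totals the median log2 ratio of DS over NS was 0.07, 0.07, -0.78 and -0.12 in MHCII+, Ly6C-high, Ly6C-inter and Ly6C-low. This order depended on the scaling: the Ly6C-inter median was -0.31 with TMM, 0.17 with positive controls and 0.48 without scaling, and the Ly6C-low median was -0.57, -0.82 and -0.64. Where leaving out the Ly6C-inter pair moved a fitted change printed below by over 1.5 times, the value without it is given.

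The sort was checked in the transcripts. H2-Aa, a chain of MHC class II, had 3419 counts in NS MHCII+ and 2635 in DS MHCII+, against 12 to 22 in the other 6 samples. Fcgr1, which encodes CD64, was measurable in both MHCII+ samples (33 and 22 counts) and stood at 3 to 9 counts, under the limit, in the 6 samples sorted as CD64+. Ly6c1 had 8, 8 and 7 counts in the NS Ly6C-high, Ly6C-inter and Ly6C-low samples, all under the limit, and gave no order among them. In DS the same 3 samples had 16, 583 and 14 counts, all above the limit, so that the sample sorted as Ly6C-inter was far above the sample sorted as Ly6C-high. Markers of other cells were sparse: of 3 epithelial, 10 stromal or endothelial, 2 T or NK cell, 1 B cell, 7 dendritic cell and 12 mast cell, basophil or eosinophil markers on the panel, none was kept among the 228 genes. Some were measurable in a single sample, which the filter does not keep. In NS MHCII+ 3 dendritic cell markers were (Dpp4, Ccr7 and Itgax, with 22, 15 and 12 counts), and in DS MHCII+ 0. Siglecf, of the last group, had 20 counts in NS Ly6C-low, above the limit.

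No gene passed the test of a stress effect common to the 4 pairs. In edgeR's quasi-likelihood fit with population as a block, 0 of 228 genes were called higher (0%) and 0 lower (0%) at an adjusted p of 0.05, and the smallest adjusted p was 0.134. At an unadjusted p of 0.05, 21 genes passed (9.21%), 10 higher and 11 lower in DS, and DESeq2 called 0 with 10 genes at that unadjusted level. The median fitted log2 change of all 228 genes was -0.18. An exact sign-flip permutation test of a single gene over 4 pairs cannot give a two-sided p under 1 in 8. These p-values measure only the spread between the 4 populations and not between mice, since no population was sampled again in either condition.

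Directions were mixed for most genes. Of 228 genes, 15 were higher in DS in all 4 pairs (6.58%) and 22 were lower in all 4 (9.65%), while 191 moved both ways. Equal raw counts in NS and DS take their sign from the scaling alone. With 1 count in both, the ratio was -0.53 in Ly6C-high and 0.52 in Ly6C-low. Under all 6 ways of scaling the counts, 5 of the 15 (Clic4, Gem, Insig1, Isg15 and Kitl) and 6 of the 22 (Adam8, Ccl24, Itgal, Klf10, Olr1 and Retnla) kept that direction in all 4 pairs, and each other gene named below as higher or lower in all 4 lost it in at least 1 pair under some scaling. Without the Ly6C-inter pair, 34 genes were higher and 25 lower in all 3 remaining pairs. Gene by gene, the log2 ratios of any 2 populations shared their sign for 46.5% to 57.02% of genes, and their Spearman correlation across the 228 genes ran from 0.02 to 0.20. Those values come from sparse counts and describe these libraries only. The exact 95% interval of a pair ratio, which covers counting error alone, lay above 0 for 14 genes (6.14%) and below 0 for 14 (6.14%) in MHCII+. It lay above 0 for 5 (2.19%) and below 0 for 4 (1.75%) in Ly6C-high. In Ly6C-inter the numbers were 21 (9.21%) and 78 (34.2%), and in Ly6C-low 8 (3.51%) and 22 (9.65%). The balance turned with the scaling: in Ly6C-inter 28 genes lay above and 51 below 0 with TMM, 39 and 16 with positive controls and 52 and 6 without scaling. In MHCII+ the numbers were 1 above and 71 below without scaling, and in Ly6C-high 23 and 1.

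**Figure D1:**
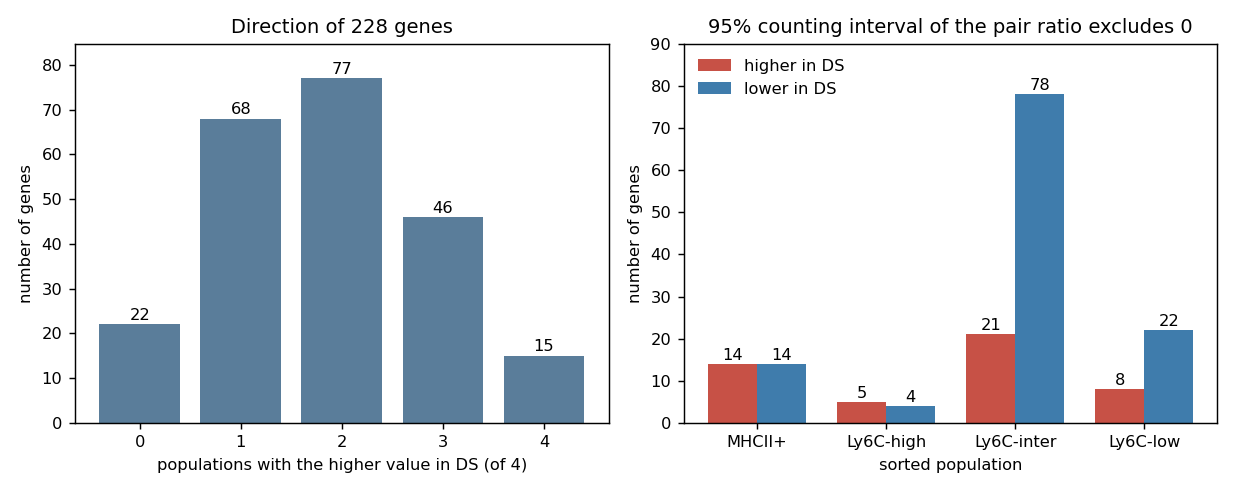
Left, number of the 228 genes (y axis) by how many of the 4 populations had the higher scaled count in DS (x axis). Right, number of genes per population whose 95% counting interval of the DS over NS ratio excluded 0, in red above 0 and in blue below 0. The left bars run 22, 68, 77, 46 and 15, and the tallest bar on the right is the 78 genes lower in DS Ly6C-inter with equal totals.

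Genes of alternative macrophage activation are described first. Ccl24, the eosinophil attractant also called eotaxin-2, had a lower scaled count in every stressed population, but was measurable only in the MHCII+ and Ly6C-inter pairs. In the order MHCII+, Ly6C-high, Ly6C-inter and Ly6C-low, which is kept throughout, its raw counts were 70, 8, 28 and 12 in NS and 23, 2, 20 and 7 in DS. After scaling all samples to the same total, the log2 ratios were -1.22, -2.53, -1.74 and -0.26, with a mean of -1.44 ± 0.95 (SD, n = 4). The interval excluded 0 in 3 of 4 populations, more than for any other gene with the same direction in all 4 pairs. Of these 3, the Ly6C-high interval rested on counts under the limit. The Ly6C-low ratio, also from counts under the limit, had an interval from -1.85 to 1.20. The fitted log2 change was -1.35 (SE 0.44, edgeR adjusted p 0.134).

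Retnla encodes RELM-alpha, a secreted protein of macrophages exposed to type 2 cytokines. It was among the most abundant transcripts, with 3144, 7, 124 and 88 counts in NS and 1887, 4, 114 and 55 in DS. The log2 ratios were -0.35, -1.33, -1.38 and -0.16, and the intervals of MHCII+ (-0.43 to -0.27) and Ly6C-inter (-1.76 to -0.998) excluded 0. Both Ly6C-high counts were under the limit. The fitted change was -0.72 (SE 0.48, edgeR adjusted p 0.654), and -0.37 without Ly6C-inter. Both Ccl24 and Retnla kept their direction in all 4 pairs under each of the 6 ways of scaling the counts.

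Arg1, the arginase that competes for the substrate of nitric oxide synthase, was lower in 3 populations and not in the fourth. Its counts were 23, 11, 9 and 5 in NS and 1, 1, 26 and 1 in DS, and a value of 1 in this table can stand for 1 or less. Only NS MHCII+ and DS Ly6C-inter were measurable. The log2 ratios were -4.14, -3.99, 0.27 and -1.81, with intervals below 0 in MHCII+ (-9.50 to -1.51) and Ly6C-high (-9.41 to -1.20). The fitted change of -1.66 (SE 0.50) had an edgeR adjusted p of 0.134. Without the Ly6C-inter pair the fitted change was -3.61 with an edgeR adjusted p of 1.42e-06, and limma called Arg1 over all 4 pairs with an adjusted p of 0.0113. Of 13 alternative activation genes on the panel 9 were kept, of which 2 were lower in all 4 pairs, none was higher in all 4 and none was called, and their median fitted change was -0.28 beside -0.18 for all genes. Their other members included Mrc1, the mannose receptor, with ratios of 0.09, -1.11, -1.13 and 0.40. Chil3, a chitinase-like protein, had ratios of -0.99, 1.60, -0.26 and 0.52.

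**Figure D2:**
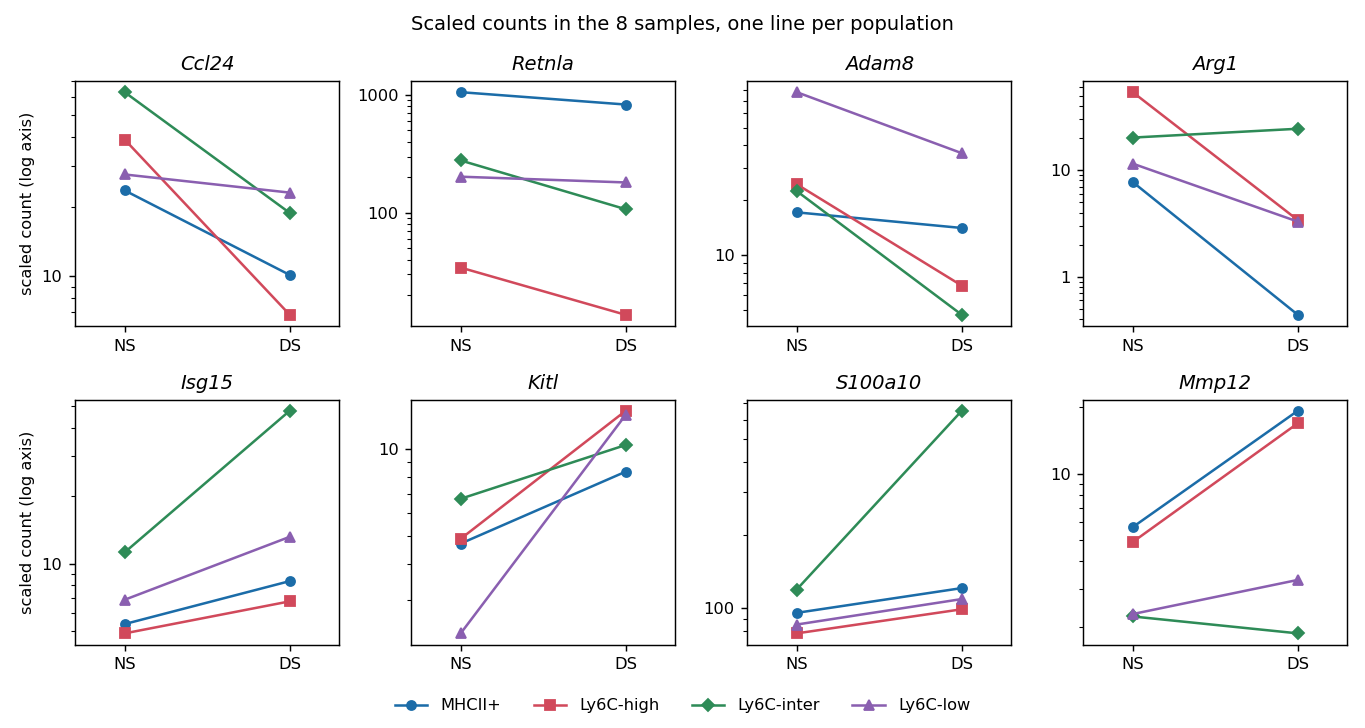
Scaled count (log axis) of 8 genes in NS and DS, with a line for each population. The 4 lines of Ccl24, Retnla and Adam8 slope down and those of Isg15, Kitl and S100a10 slope up, while 1 line of Arg1 and 1 line of Mmp12 (both Ly6C-inter) run against the other 3. The raw Mmp12 counts of Ly6C-inter were under the limit and did not fall, so its line slopes down through the scaling alone.

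Tnfrsf1a, the main receptor for tumor necrosis factor, had 98, 11, 16 and 10 counts in NS and 49, 10, 20 and 5 in DS. Its ratios were close to each other at -0.61, -0.66, -0.93 and -0.48, but the Ly6C-high and Ly6C-low counts were all under the limit. The interval excluded 0 only in MHCII+ (-1.14 to -0.10). Nr4a1, a nuclear receptor on which Ly6C-low monocytes depend, had ratios of -0.38, -0.63, -1.19 and -0.37 from 95, 15, 22 and 24 counts in NS and 56, 14, 23 and 13 in DS. Btk, a tyrosine kinase of B cell and Fc receptor signalling, had ratios of -0.37, -0.53, -2.06 and -0.90, but only its MHCII+ counts (27 and 16) were measurable. The Ly6C-high ratio of Btk came from 1 count in each condition, so its sign is that of the scaling. Its fitted change was -0.89 with and -0.48 without Ly6C-inter. Csf1r, the receptor for the macrophage growth factor CSF1, was lower by more than 0.2 in Ly6C-inter alone, with ratios of -0.07, -0.18, -1.30 and -0.07, and its fitted change was -0.42 with that pair and -0.09 without it.

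Proteases and lysosomal proteins were also in this set. Adam8, a membrane metalloprotease of leukocytes, had 51, 5, 10 and 34 counts in NS and 32, 2, 5 and 11 in DS, and ratios of -0.29, -1.85, -2.26 and -1.11. Its fitted change was -1.09 (SE 0.45, edgeR adjusted p 0.372). The intervals excluded 0 in Ly6C-inter, where both counts were under the limit, and in Ly6C-low. Both Ly6C-high counts of Adam8 were under the limit as well. Ctss, the cathepsin that trims the invariant chain from MHC class II, had 283, 20, 36 and 19 counts in NS and 205, 17, 50 and 12 in DS, and ratios of -0.08, -0.76, -0.78 and -0.15, with a measurable count in every pair. Its fitted change was -0.43, and -0.27 without Ly6C-inter. Grn (progranulin) had ratios of -0.40, -1.20, -0.57 and -0.71, and no interval excluded 0. Mmp19, a matrix metalloprotease, had ratios of -0.28, -2.11, -0.26 and -0.81, of which only the MHCII+ pair (38 and 24 counts) was measurable. Olr1, a scavenger receptor for oxidized lipoprotein, was measurable in NS Ly6C-inter and NS Ly6C-low with 13 and 39 counts against 9 and 11 in DS. Other members were Oaz1, Klrk1, Nfil3, Socs3, Lipa, Nfkbiz, Klf10, Pf4, Itgal and Man2b1, whose mean ratios ran from -0.24 (Pf4, platelet factor 4) to -1.34 (Klf10, a zinc finger transcription factor). The fitted change of Klf10 was -1.19 with and -0.42 without Ly6C-inter. Of all 22 genes, 5 had no interval that excluded 0, 11 had 1, 5 had 2 and Ccl24 had 3.

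**Figure D3:**
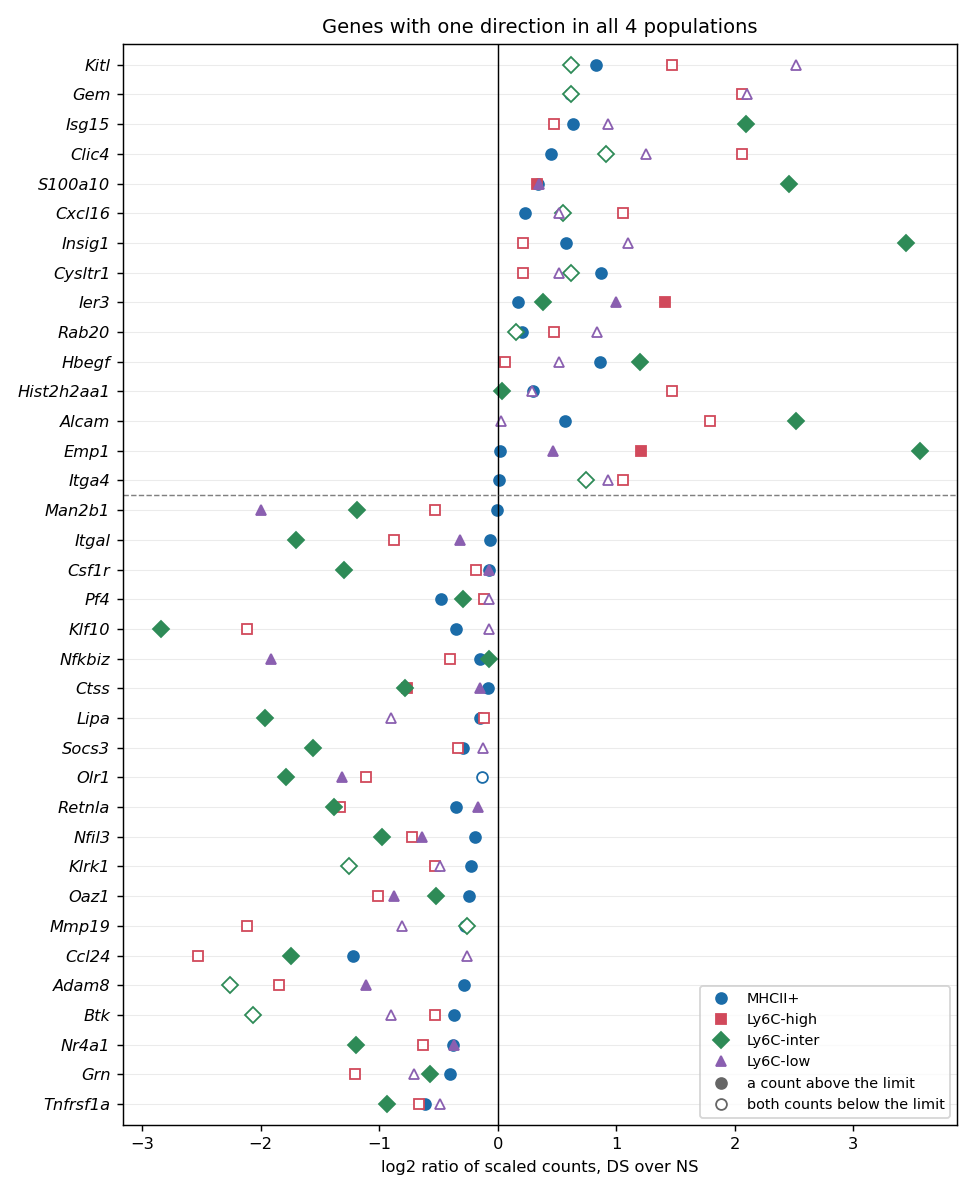
Log2 ratio of DS over NS (x axis) in each of the 4 populations for the 15 genes higher and 21 of the 22 genes lower in all 4 pairs, split by the dashed line. Filled symbols are pairs with a count above the negative control limit in NS or DS and open symbols are pairs with both counts below it. Of the genes shown, Emp1, Ier3, S100a10 and Ctss have 4 filled symbols.

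The 15 genes higher in all 4 pairs were led by weakly expressed genes. S100a10, the partner of annexin A2 at the cell membrane, and Ier3, an immediate early gene, had measurable counts in every pair. S100a10 had 283, 16, 53 and 37 counts in NS and 274, 29, 696 and 33 in DS, and ratios of 0.34, 0.33, 2.46 and 0.35. The MHCII+ (0.10 to 0.59) and Ly6C-inter (2.06 to 2.89) intervals excluded 0. With all 4 pairs the fitted change was 0.88 (SE 0.46, edgeR adjusted p 0.560), and it was 0.34 without Ly6C-inter. Ier3 had 173, 6, 33 and 20 counts in NS and 149, 23, 103 and 28 in DS. Its ratios of 0.17, 1.41, 0.39 and 1.001 had a mean of 0.74 ± 0.57 (SD, n = 4), with intervals above 0 in Ly6C-high and Ly6C-low.

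Emp1, a membrane protein of the claudin-like PMP22 family found in many epithelia, was measurable in every pair but differed almost wholly in Ly6C-inter. Its counts were 97, 6, 51 and 29 in NS and 75, 20, 1436 and 28 in DS, and its ratios were 0.02, 1.21, 3.56 and 0.47. The fitted change was 1.29 (SE 0.51, edgeR adjusted p 0.322) and 0.39 without that pair. In the same DS Ly6C-inter sample Ly6c1 had 583 counts against 8 in NS, and the neutrophil-associated gene Pglyrp1 had 196 against 5. The 12 neutrophil markers on the panel summed to 0.08% to 0.95% of counts in the NS samples and 0.09% to 2.02% in the DS samples, highest in DS Ly6C-inter. Of the 12, only 2 (Pglyrp1 and S100a9) were measurable in DS Ly6C-inter. The granulocyte gene S100a9 had 55 counts there against 16 in NS, a scaled log2 ratio of 0.53 with an interval from -0.30 to 1.43. S100a8 had 7 against 6, both under the limit, and a ratio of -1.03. The 3 epithelial markers summed to at most 0.38% in any sample, and Cdh1 (E-cadherin) had 16 counts in DS Ly6C-inter against 2 in NS. Both Cdh1 counts were under the limit, and the interval of its ratio ran from -0.34 to 4.91. The sort had kept live cells with CD45 and CD11b and had removed granulocytes and lymphocytes with a dump channel. The part of other cells in the Ly6C-inter values was not tested, and in pooled sorted cells fewer cells of a type and less RNA per cell cannot be told apart.

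Isg15, a ubiquitin-like protein induced by interferons, had 16, 1, 5 and 3 counts in NS and 19, 2, 51 and 4 in DS. The log2 ratios were 0.64, 0.47, 2.09 and 0.93, and only that of Ly6C-inter had an interval above 0 (0.78 to 3.78). The fitted change was 1.17 (SE 0.50, edgeR adjusted p 0.372), and without Ly6C-inter 0.67. Of 13 interferon response genes on the panel 4 were kept, 1 of them higher in all 4 pairs and none lower in all 4. None of the 13 was measurable in Ly6C-high or Ly6C-low, in NS or DS. Their median fitted change was 0.44, against -0.18 for all genes, and it lay between 0.39 and 0.58 under the 6 scalings. Irf1, a transcription factor of this response, had ratios of -0.01, 1.06, 1.60 and 0.25, and the chemokine Cxcl10 had 0.65, 0.47, -1.26 and 0.19.

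Kitl, the ligand of the receptor KIT, had the highest minimum ratio of the 15 genes, with ratios of 0.83, 1.47, 0.62 and 2.52, but from counts of 14, 1, 3 and 1 in NS and 19, 4, 11 and 4 in DS that were measurable in MHCII+ alone. Gem, a small GTPase that binds calcium channel subunits, had the same limit, with 18, 1, 3 and 1 counts in NS and 21, 6, 11 and 3 in DS. Hbegf, a ligand of the EGF receptor, had 18, 4, 10 and 8 counts in NS and 25, 6, 55 and 8 in DS, and its interval excluded 0 in Ly6C-inter only. The fitted change of Hbegf was 0.78 with and 0.64 without that pair. Insig1, which holds back the activation of sterol-regulating factors, had ratios of 0.58, 0.21, 3.44 and 1.101. It was measurable in at most 2 pairs, and only 1 interval excluded 0. Its fitted change was 1.53 (SE 0.51, edgeR adjusted p 0.139) over 4 pairs and 0.58 without Ly6C-inter. The others were Clic4, Cxcl16, Cysltr1, Rab20, Alcam, Itga4 and Hist2h2aa1, a histone gene with near-identical copies whose transcripts the probe may not separate. Cysltr1, a receptor for cysteinyl leukotrienes, had ratios of 0.87, 0.21, 0.62 and 0.52 and was measurable in MHCII+ alone. Of the 15 genes, 8 had no interval that excluded 0.

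The promoter sequences that bear on these genes are shown for 3 members, chosen after their values were seen, to let a reader see the letters that interferon, STAT6 and AP-1 factors are known to bind. RefSeq promoters of GRCm38.p6 were found for 25 of the 37 genes with the same direction in all 4 pairs, and the 250 bases before the gene start were searched on both strands. Capitals mark the matches to GAAA, any 2 bases and GAAA again in Isg15 (chr4:156200830-156200941, minus strand), where 3 matches overlap, to TTC, any 4 bases and GAA in Retnla (chr16:48842419-48842518, plus strand), and to TGAGTCA in Emp1 (chr6:135362741-135362837, plus strand, 1 of 2 listed starts).
Isg15: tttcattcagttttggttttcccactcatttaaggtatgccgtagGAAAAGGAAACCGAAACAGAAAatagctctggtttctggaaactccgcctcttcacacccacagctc
Retnla: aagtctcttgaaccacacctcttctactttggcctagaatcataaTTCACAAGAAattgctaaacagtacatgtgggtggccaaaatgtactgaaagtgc
Emp1: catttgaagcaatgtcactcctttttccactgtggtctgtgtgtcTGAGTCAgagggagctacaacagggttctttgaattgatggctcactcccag
The first motif occurred in 2.98% of 32851 promoters, the second in 5.85% and the third in 4.46%. Of the 9 matched genes higher in all 4 pairs, Isg15 held the first motif, Emp1 the third and none the second. Of the 16 matched genes lower in all 4 pairs, Ctss held the first, Retnla the second and Olr1 the third. The capitals show letters only, and no binding was measured in these cells.

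Opposed directions beyond counting error, an interval above 0 in at least 1 population and below 0 in another, were found for 11 genes (4.82%). Fcgr2b, the inhibitory Fc receptor for IgG, had the largest distance between its highest and lowest ratio with equal totals, while S100a11 had a larger one under the other 5 scalings. Fcgr2b had 232, 12, 43 and 16 counts in NS and 165, 5, 39 and 34 in DS, with ratios of -0.10, -1.79, -1.40 and 1.60. Intervals were below 0 in Ly6C-high and Ly6C-inter and above 0 in Ly6C-low (0.71 to 2.56). Apoe, the lipid carrier of macrophages, showed a similar pattern with ratios of -0.12, -1.26, -0.85 and 0.67, from 469, 15, 141 and 54 counts in NS and 329, 9, 187 and 60 in DS. S100a11, a calcium-binding partner of annexin A1, ran the other way. It had 165, 17, 62 and 109 counts in NS and 158, 44, 891 and 46 in DS, and ratios of 0.32, 0.85, 2.59 and -0.73.

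Inflammatory mediators were among the opposed genes. Il1b, the cytokine interleukin-1 beta, had 319, 34, 25 and 39 counts in NS and 290, 31, 11 and 17 in DS. Its ratio was 0.25 in MHCII+ (0.02 to 0.48) and -2.44 in Ly6C-inter (-3.61 to -1.36), with -0.66 and -0.68 in Ly6C-high and Ly6C-low. The neutrophil chemokine Cxcl2 had ratios of 0.48, -0.32, -1.18 and -0.23, and Alox5ap, which hands arachidonic acid to 5-lipoxygenase, had 0.63, 0.15, -1.36 and -0.01. Crip1, a LIM domain protein, followed the same order with 0.15, -0.29, -1.55 and -0.22. Ear3, an eosinophil-associated ribonuclease of a family with near-identical members that the probe may not separate, had 0.37, -1.70, -2.48 and -0.07. Fosb, a subunit of AP-1, was higher in Ly6C-high (1.23) and lower in Ly6C-inter (-1.09). Calr, the chaperone calreticulin, was lower in MHCII+ (-0.32) and higher in Ly6C-inter (0.81), and H2-D1, an MHC class I heavy chain, was higher in Ly6C-inter (0.43) and lower in Ly6C-low (-0.68). The Ly6C-inter interval was below 0 for 8 of the 11 genes and above 0 for the other 3. Without this pair only Fcgr2b and S100a11 remained opposed, and under all 6 scalings Fcgr2b, Fosb, H2-D1 and S100a11 did. A test of whether the stress effect differed between populations was not possible with 1 sample per population and condition.

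**Figure D4:**
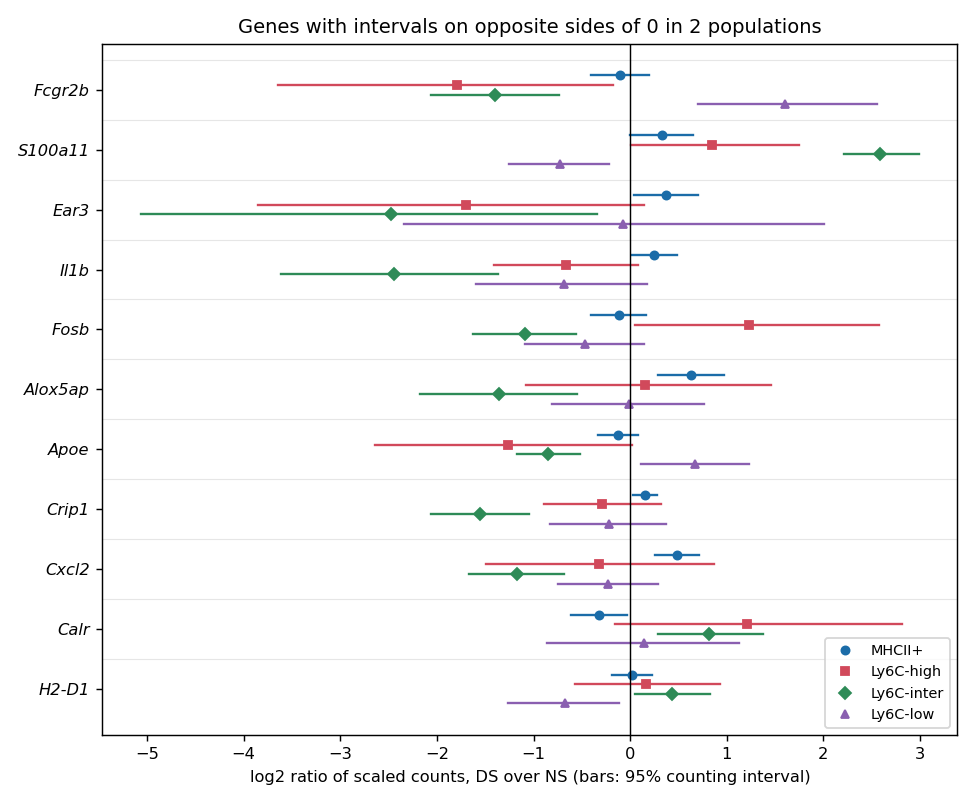
Log2 ratio of DS over NS (x axis) in each population for the 11 genes with opposed directions, with 95% counting intervals as bars. Green bars (Ly6C-inter) lie wholly below 0 for 8 genes and wholly above 0 for S100a11, Calr and H2-D1.

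Gene groups were compared by their kept members. MHC class II genes had 8 of 9 measured members kept. Only Ctss was lower in all 4 pairs and none was higher, and the group's median fitted change was -0.19. The invariant chain Cd74 had ratios of -0.01, 0.60, -0.99 and 0.79, with 5212, 22, 55 and 24 counts in NS and 3967, 48, 66 and 29 in DS. Complement had 7 of 7 kept, none with the same direction in all 4 pairs, and a median fitted change of -0.39. Its most abundant members, the C1q chains C1qa, C1qb and C1qc, had ratios of -0.34, -0.36 and -0.41 in MHCII+ and -1.19, -1.48 and -1.15 in Ly6C-inter, with intervals below 0 in both. In Ly6C-low, where they were measurable, the ratios were 0.24, -0.25 and 0.29 with intervals that included 0. Their Ly6C-high counts were under the limit. C3, the central complement component, had 18, 9, 1 and 1 counts in NS and 12, 19, 16 and 6 in DS. Its intervals lay above 0 in Ly6C-inter and Ly6C-low, but every count in these pairs was under the limit, so C3 was not measurable there.

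Chemokines had 14 of 23 kept, with Cxcl16 higher and Ccl24 lower in all 4 pairs, and a median fitted change of -0.38. Ccl2, the main ligand of the monocyte receptor CCR2, had 562, 14, 182 and 57 counts in NS and 369, 11, 152 and 58 in DS. Its ratios were -0.22, -0.87, -1.52 and 0.54. The CCR2 ligands Ccl8 and Ccl12 also had intervals below 0 in MHCII+ (ratios -0.91 and -0.74) and in Ly6C-inter (-1.76 and -1.63). Ccl12 had higher values in the other pairs, with ratios of 1.47 in Ly6C-high (counts under the limit) and 0.60 in Ly6C-low (17 and 18 counts). Both of these intervals included 0. S100 proteins and alarmins had 6 of 9 kept, S100a10 alone with the same direction in all 4 pairs, and a median of 0.38. Immediate early genes had 14 of 18 kept, with Ier3 and Gem higher and Nr4a1 lower in all 4 pairs. Their median of -0.08 turned to 0.13 without scaling. Matrix remodelling genes had 9 of 15 kept, with Mmp19, Adam8 and Ctss lower in all 4 pairs and a median of -0.19. Mmp12, the macrophage elastase, had 17, 1, 1 and 1 counts in NS and 44, 5, 2 and 1 in DS, and an interval above 0 in MHCII+ (0.92 to 2.66). Outside MHCII+ every count of Mmp12 was under the limit. Its fitted change was 1.52 (SE 0.50, edgeR adjusted p 0.134), and 1.71 with an edgeR adjusted p of 0.00467 without Ly6C-inter. Without MHCII+ it was 0.88. Over all 4 pairs limma gave 0.95, and 0.22 with the negative control mean subtracted.

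Genes that the study had singled out for stress were also followed, a choice made on these samples and so no independent evidence. Of these 19 genes 7 were kept, and Ccl24 alone had the same direction in all 4 pairs. The study named them for single populations, so a shared direction is not what it reported. It gave Nlrp3, Casp1 and Cd1d1 as higher in monocytes, and Mertk, Arg1 and Ccl24 as lower in MHCII+ cells. Mertk, which was not kept, had 15 counts in NS MHCII+ and 1 in DS, with an interval from -8.92 to -0.82. Its counts in the other populations were under the limit. None of the M1-associated genes Trem1, Ido1, Il12b and Stat5b, which the study gave as higher in MHCII+ cells, was kept. Nlrp3, the sensor of an inflammasome, had 49, 1, 8 and 6 counts in NS and 41, 5, 8 and 4 in DS, and ratios of 0.13, 1.80, -1.26 and -0.07. Icam1, the adhesion ligand of LFA-1, had 91, 1, 11 and 4 counts in NS and 80, 8, 13 and 11 in DS, with an interval above 0 in Ly6C-low only. Batf, an AP-1 family factor, had ratios of 0.25, 1.47, -0.09 and 0.52, and Cd1d1, which presents lipids to NKT cells, had 0.58, 2.28, -1.58 and 1.101. Outside MHCII+ none of the counts of Nlrp3, Icam1, Batf and Cd1d1 exceeded the limit. The Ly6C-low ratio of Batf came from 1 count in each condition, so its sign is that of the scaling.

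**Figure D5:**
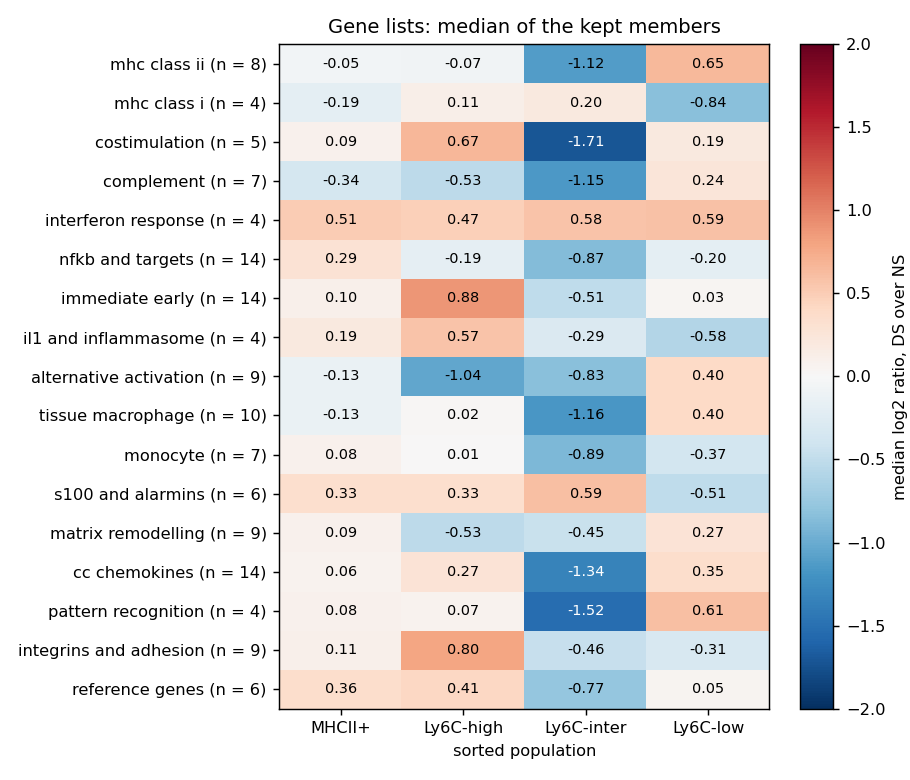
Median log2 ratio of DS over NS (color and printed value) of the kept members of each gene list (rows, n kept members) in each population (columns). The Ly6C-inter column is the bluest, from -1.71 for costimulation to 0.59 for S100 proteins and alarmins. Interferon response is the only list shown with a value above 0.4 in all 4 columns. Its Ly6C-high and Ly6C-low values come only from counts under the negative control limit.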

How the data were processed

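RNA from sorted conjunctival cells was hybridized to a mouse myeloid innate immunity panel (nCounter, V2), and the authors deposited raw counts per probe for 754 genes, 8 negative and 6 positive control probes, as whole numbers of at least 1. The normalization settings of the authors' software are not given in the sources used here and are not part of these counts. Counts were scaled to equal totals over the genes (a total of 13334). Genes above the mean + 2 SD of the negative probes in at least 2 samples were kept. DS was tested against NS in edgeR 4.0.16 (glmQLFit, glmQLFTest, R 4.3.3) with population as a block, library sizes equal to the gene totals, 3 residual degrees of freedom and Benjamini-Hochberg adjustment over the 228 genes. DESeq2 1.42.0 and limma 3.58.1 were alternatives, as were other scalings, filters and each pair left out. The edgeR step was tested on simulated data. The pairing comes from the labelled population, which the replicate number also marks. Pair ratios have exact (Clopper-Pearson) 95% intervals, which cover counting error only.

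The 228 genes, the comparison and the 28 gene lists were chosen with earlier results of these data known. Named were, for each direction, the 12 genes with the same sign in all 4 pairs and the highest minimum size of ratio, up to 12 opposed genes by the range of their ratios, the study's stress genes, sort markers and list members with high counts. Emp1, Olr1, Mmp12, Csf1r, Chil3, C3, Ccl8, Ccl12, Pglyrp1, S100a8, Cdh1 and the members given only by name were added after their values were seen. A single member of the set lower in all 4 pairs, which this rule would name, is counted but not reported here. The scaling of the interval counts was also varied after seeing the data.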

Additional observations from a re-analysis of the deposited data

Results flagged for a closer look

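S100a10 had a log2 ratio of 2.46 in the Ly6C-inter pair, far from the 0.33 to 0.35 of the other 3 pairs. It was the only such case among 43 genes examined, where chance alone would give about 1 in 20. A single case among 43 is no excess over that rate, and many of the 43 were chosen from these same ratios. The rate concerns the number of cases and does not account for this pair, whose cause was not tested.

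For the 11 genes with intervals on opposite sides of 0, the distance between the highest and the lowest log2 pair ratio was 3.393 for Fcgr2b, 3.318 for S100a11, 2.847 for Ear3 and 2.69 for Il1b. It was 2.322 for Fosb, 1.991 for Alox5ap, 1.931 for Apoe and 1.708 for Crip1. It was 1.66 for Cxcl2, 1.531 for Calr and 1.11 for H2-D1. These differences between populations were not tested beyond counting error.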

How the results depend on the processing

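The number of genes called stayed at 0 under TMM, DESeq2 size factors, reference genes, positive controls, no scaling, the stricter filter, DESeq2 and the fit without the population block (no replicate block, 0 genes, 8 at an unadjusted p of 0.05), so the pairing changed no call. With no filter 3 of 754 genes were called (Cd274, Pdzk1ip1 and Pglyrp1, all higher), with limma 1 (Arg1) and with the negative control mean subtracted 1 (Ly6c1, higher). Leaving out a pair gave 0 to 2 calls, the 2 (Arg1 and Mmp12) without Ly6C-inter.

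Genes higher in all pairs numbered 9 with DESeq2 size factors, 7 with positive controls and 6 without scaling, and genes lower in all pairs 11 without scaling. With no filter they were 63 and 40, with the limit passed in 4 samples 3 and 11, and with counts raised to the limit 2 and 3. Leaving out a pair gave 21 to 34 higher, the most without Ly6C-inter, and 25 to 54 lower, the most without MHCII+. Alternatives chosen after seeing the data left 3 and 2 genes measurable in every pair, and 5 (Clic4, Gem, Insig1, Isg15 and Kitl) and 6 (Adam8, Ccl24, Itgal, Klf10, Olr1 and Retnla) under every scaling. Opposed genes numbered 28 with positive controls, 32 without scaling, 4 with a 99% interval and 2 to 10 with a pair left out.

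Under background subtraction the fitted changes of Clic4 (-0.17), Cxcl16 (-0.24) and Rab20 (-0.25) turned negative, and their counts outside MHCII+ lay under the limit. For 27 named genes, 379 of 386 gene and setting combinations kept direction and side of the threshold. Most of these genes were chosen because every pair had the same direction, and none was called in the edgeR fit over all pairs. The count therefore follows in part from that choice and cannot show how stable the changes were. The size of a change was not part of the count. The scaling moved the median ratio of Ly6C-inter from -0.78 (equal totals) to 0.48 (none). The causes were not tested. In Ly6C-high 24 genes in NS and 52 in DS exceeded the negative control limit.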
